A study of Drosophila melanogaster with 24 samples.

Results

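The response of wild-type Drosophila melanogaster to traumatic brain injury was measured as the difference between 4 libraries of injured flies and 4 libraries of uninjured flies. All genes that passed a filter on low counts were taken, 13868 of the 17768 genes in the deposited count table. The flies belong to the line labelled wild type, yw, a stock named for the body-colour and eye-colour mutations yellow and white. RNA came from whole males aged 1 to 7 days, kept on molasses food at 25 °C. Injured flies went back to food for 4 h after the injury and were then frozen, and uninjured flies were collected and frozen. The labels do not say whether uninjured flies were handled and held in the same way over those hours, so injury and handling cannot be told apart. The series also holds injured and uninjured males of the genotypes +/Reldel and Reldel/Reldel, heterozygous and homozygous for a deletion at Rel, the gene of the NF-kappaB factor Relish, which makes 24 libraries in 6 groups of 4. The brain was not separated from the rest of the body, and in such bulk samples fewer cells of a type and less RNA per cell cannot be told apart. Whether each library of a group came from its own culture is not given in the labels, and the spread that p-values rest on may therefore be technical.

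Flies answer microbes and tissue damage with innate immunity. Peptidoglycan recognition proteins start the Imd cascade, which ends in Relish, and the extracellular protease cascade of the Toll pathway, which ends in the NF-kappaB factors Dorsal and Dif. Both pathways lead to secretion of antimicrobial peptides, largely by the fat body, the fly counterpart of liver and adipose tissue. Wounds also activate the stress kinase JNK, which acts through the AP-1 transcription factor, and release of Unpaired cytokines, which act through the receptor Domeless and the JAK-STAT pathway.

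The 8 libraries held 6543632 to 13244524 counts, and a gene with 3 counts would stand at 0.218 to 0.457 CPM, counts scaled to the size of the library. Male tissue was present in all of them: 27 testis genes summed to 7334 to 9205 CPM uninjured and 7158 to 8615 CPM injured, and 46 accessory gland genes to 14863 to 19443 CPM and 13342 to 16556 CPM. Libraries stood apart in 3 ways. Injured library 4 held transcripts of the ovary and egg: dhd, a thioredoxin of the egg, was at 88.4 CPM there and at most 3.1003 CPM in the other 7 wild-type libraries. In that library 12 genes were at least 5 times as high as in every other wild-type library, 6 of them called higher after injury. The 12 were not all ovary and egg genes, and included the cytochrome P450 gene Cyp6a19 at 16.7 CPM. Uninjured library 1 had the highest uninjured levels of several immune genes, such as the stress peptide gene TotA at 227 CPM against 18.4 to 49.0 CPM in the other 3. The summed level of 42 digestive enzyme genes was 2678, 1060, 720 and 2108 CPM in uninjured libraries 1 to 4 and 2658, 1626, 4383 and 1204 CPM in injured libraries 1 to 4, so the groups overlapped and each held a wide range.

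**Figure D1:**
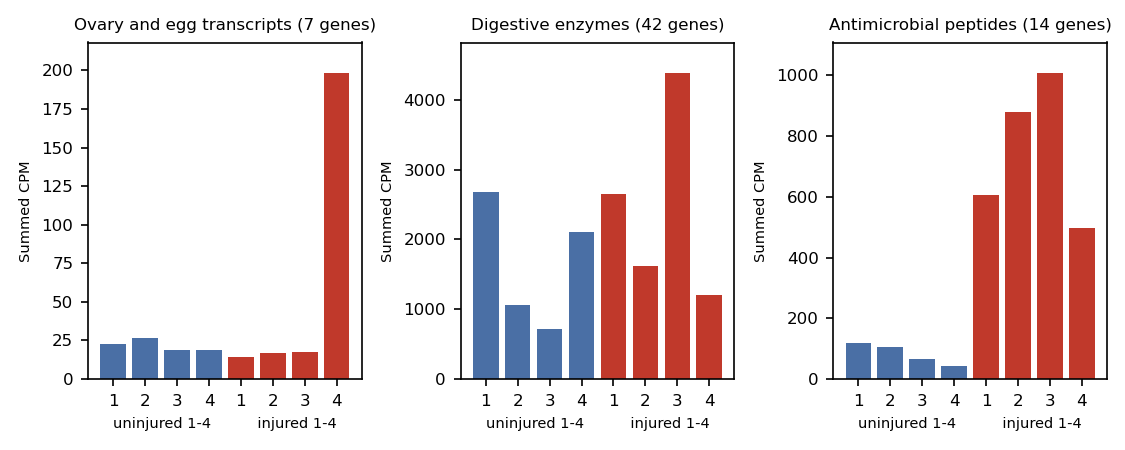
Summed CPM of 7 ovary and egg transcripts, 42 digestive enzymes and 14 antimicrobial peptides in each wild-type library, uninjured in blue and injured in red. The ovary and egg transcripts stand out in injured library 4 at 198 CPM, the digestive enzymes vary within both groups, and the antimicrobial peptides are higher in all 4 injured libraries.

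Injury changed 525 of the 13868 genes (3.79%), and most of the change was upward: 465 genes rose (3.35%) and 60 fell (0.433%) at an adjusted p under 0.05 (edgeR quasi-likelihood test, Benjamini-Hochberg adjustment over all genes tested, which holds for every adjusted p below). The genes that rose had a median log2 fold change of 0.95, and 221 of them were at least 2-fold, 92 at least 4-fold and 36 at least 8-fold higher. The genes that fell had a median of -0.85, with 25 at least 2-fold lower (so that 1.77% of all genes were called and at least 2-fold changed) and 0 at least 4-fold lower. Over all genes tested the median was -0.01. Counts of called genes in each list below are to be read beside the 3.35% of all genes higher and 0.433% lower. The 4 injured libraries lay above all 4 uninjured ones for 442 of the genes that rose and below them for 55 of those that fell, against 8.5% and 4.54% of all genes tested. Calls rest on the same libraries, so separation of called genes here and below is no separate support for them. Genes named for the largest increases or decreases were picked from those without overlap, so their separation was set by that choice. As each of the 8 libraries was left out in turn, 301 to 459 genes were called, the fewest without uninjured library 4, and 253 of the 525 calls were made in all 8 of these fits. A log2 fold change is given ± its standard error and a mean CPM ± the SD of 4 libraries, and values of 4 libraries are given in the order of libraries 1 to 4.

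**Figure D2:**
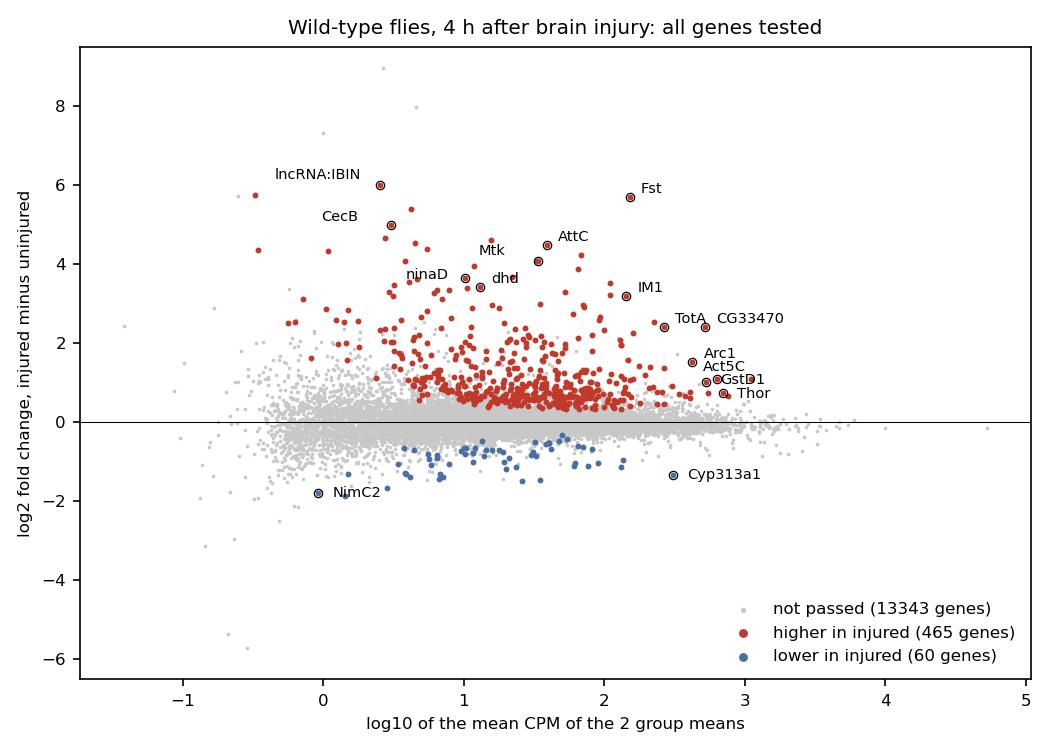
Each point is a gene, with its level in CPM on a log axis and the log2 fold change, injured over uninjured, on the vertical axis. Red points (465) rose, blue points (60) fell, grey points did not pass, and 4 genes at 0 in all 8 wild-type libraries are not drawn. The genes that rose reach a log2 change of 6.004, and those that fell reach -1.87.

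Antimicrobial peptide genes carried some of the largest changes. Of 14 tested members, 12 rose, 0 fell and 2 did not pass, with a median log2 fold change of 3.32. Their summed level was 119, 104, 65.6 and 43.4 CPM in the uninjured libraries and 607, 880, 1007 and 499 CPM in the injured ones, with no overlap between the groups. Mtk, which encodes the antifungal peptide metchnikowin, was at 2.41, 8.55, 2.16 and 1.63 CPM uninjured and 57.7, 76.1, 64.5 and 56.7 CPM injured, a log2 fold change of 4.08 ± 0.54 (adjusted p = 4.57e-05). AttC, an attacin gene directed at Gram-negative bacteria, was at 2.70, 6.86, 2.16 and 1.40 CPM uninjured and 54.9, 104, 89.5 and 49.6 CPM injured (4.49 ± 0.60, adjusted p = 4.91e-05). Both genes had their highest uninjured and their highest injured value in library 2 of the group. DptB, a diptericin gene under the Imd pathway, was at 13.9, 8.96, 4.01 and 2.02 CPM uninjured and 126, 156, 164 and 71.5 CPM injured (4.23 ± 0.69, adjusted p = 0.000437). Drs, which encodes the antifungal peptide drosomycin, a Toll target, was at 16.5, 31.2, 10.7 and 5.75 CPM uninjured and 94.0, 160, 146 and 103 CPM injured (2.97 ± 0.42, adjusted p = 8.63e-05). Neither gene overlapped between the groups, and uninjured library 4 was the lowest for both. Without uninjured library 2 the log2 fold change was 4.97 for Mtk and 5.20 for AttC.

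The cecropins, short lytic peptides, were low but changed steeply. CecB rose from 0.174 ± 0.105 to 5.94 ± 3.17 CPM (4.995 ± 0.64, adjusted p = 5.38e-05), and CecC from 0.207 ± 0.153 to 5.30 ± 2.33 CPM (4.66 ± 0.63, adjusted p = 4.91e-05). The related CecA1 already stood at 18.2 ± 2.08 CPM uninjured, was at 24.8 ± 4.22 CPM injured and did not pass (0.44 ± 0.23, adjusted p = 0.397). The attacins AttA (3.88 ± 0.68) and AttB (3.29 ± 0.51), the drosocin gene Dro (3.36 ± 0.63), the defensin gene Def (2.18 ± 0.45) and CecA2 (2.38 ± 0.54) rose on the log2 scale, with adjusted p of 0.000875, 0.000222, 0.00179, 0.00405 and 0.0108. DptA was at 21.9, 5.003, 2.70 and 3.26 CPM uninjured, with library 1 far above the other 3, and at 46.9, 70.4, 97.8 and 29.5 CPM injured (2.99 ± 0.68, adjusted p = 0.0111). AttD did not pass (2.23 ± 0.69, adjusted p = 0.0846): its uninjured library 1, at 3.26 CPM, lay within the injured range of 2.84 to 5.80 CPM. Of 3 relatives of drosomycin, Drsl3 rose from 0.0960 ± 0.118 to 2.07 ± 0.831 CPM (4.34 ± 0.79, adjusted p = 0.00132), and Drsl4 (-0.24) and Drsl5 (-0.02) did not pass. Some calls ended when 1 library was left out, those of CecA2 without uninjured library 4 (adjusted p 0.0609) and DptA without uninjured library 3 or 4 (adjusted p 0.0508 to 0.0671), and 10 to 13 members of the list were called over the 8 fits. Larger log2 fold changes were found without 1 uninjured library, 4.06 for DptA without library 1, 3.96 for Dro and 5.59 for Drsl3 without library 2, and 5.28 for CecC without library 3. Attacin and cecropin copies are near-identical and can share reads, so values of single copies are uncertain.

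Short secreted peptides of the Toll pathway rose from higher starting levels. Of 16 tested Bomanins and other Toll peptides, 14 rose, 0 fell and 2 did not pass, with a median of 2.06 and 12 to 14 calls as each library was left out. Their summed level was 444 to 961 CPM uninjured and 2059 to 3601 CPM injured. IM1, a Bomanin, was at 24.8, 44.8, 23.8 and 17.6 CPM uninjured and 212, 331, 306 and 179 CPM injured (3.21 ± 0.43, adjusted p = 4.91e-05). CG33470, which encodes the precursor BaraA1 of the Baramicin peptides, was at 163, 300, 124 and 69.99 CPM uninjured and 763, 1243, 897 and 600 CPM injured (2.42 ± 0.46, adjusted p = 0.00184). For both genes library 2 was the highest and library 4 the lowest of each group, and the groups did not overlap. IM33 had tight groups, at 107 to 125 CPM uninjured and 227 to 361 CPM injured (1.41 ± 0.17, adjusted p = 2.08e-05). IM23 rose from 3.57 ± 4.27 to 62.9 ± 15.96 CPM (4.09 ± 0.67, adjusted p = 0.000474), and IM14 from 1.36 ± 0.723 to 22.2 ± 10.05 CPM (3.95 ± 0.69, adjusted p = 0.000910). Without uninjured library 2 the value for IM23 was 5.42. CG15068 (0.63) and IM18 (0.23) did not pass. Bomanin copies resemble each other, so reads may be shared among them.

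Many of these peptide genes lie side by side. A run of 9 neighbouring genes from CG43202 to CG15065, on chromosome arm 2R at 18381393 to 18390242 (dm6), was called higher, with log2 fold changes of 1.17 to 4.09, and held IM23, IM1, IM2, IM3 and 3 further Toll peptide genes between its ends. Further runs of 3 called neighbours included Dro, AttA and AttB on 2R (14745961 to 14750165), CecA2, CecB and CecC on 3R (30212156 to 30216938), and GstD9, GstD1 and GstD2 on 3R (12366163 to 12372704). CG13311, CG34426, CG32023 and CG34427, a run of 4 genes on 3L (8801540 to 8805812) for which no role is given here, rose by 1.36 to 3.13 on the log2 scale. CG32023 was at 14.9, 11.0, 12.7 and 12.4 CPM uninjured and 31.0, 34.5, 37.9 and 27.2 CPM injured (1.36 ± 0.15, adjusted p = 7.45e-06). In these runs the calls that ended were those of CecA2 without uninjured library 4 (adjusted p 0.0609) and CG15065 without uninjured library 4 (adjusted p 0.0571). Whether reads were counted by strand is not given in the labels, which leaves values of overlapping and antisense genes uncertain.

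**Figure D3:**
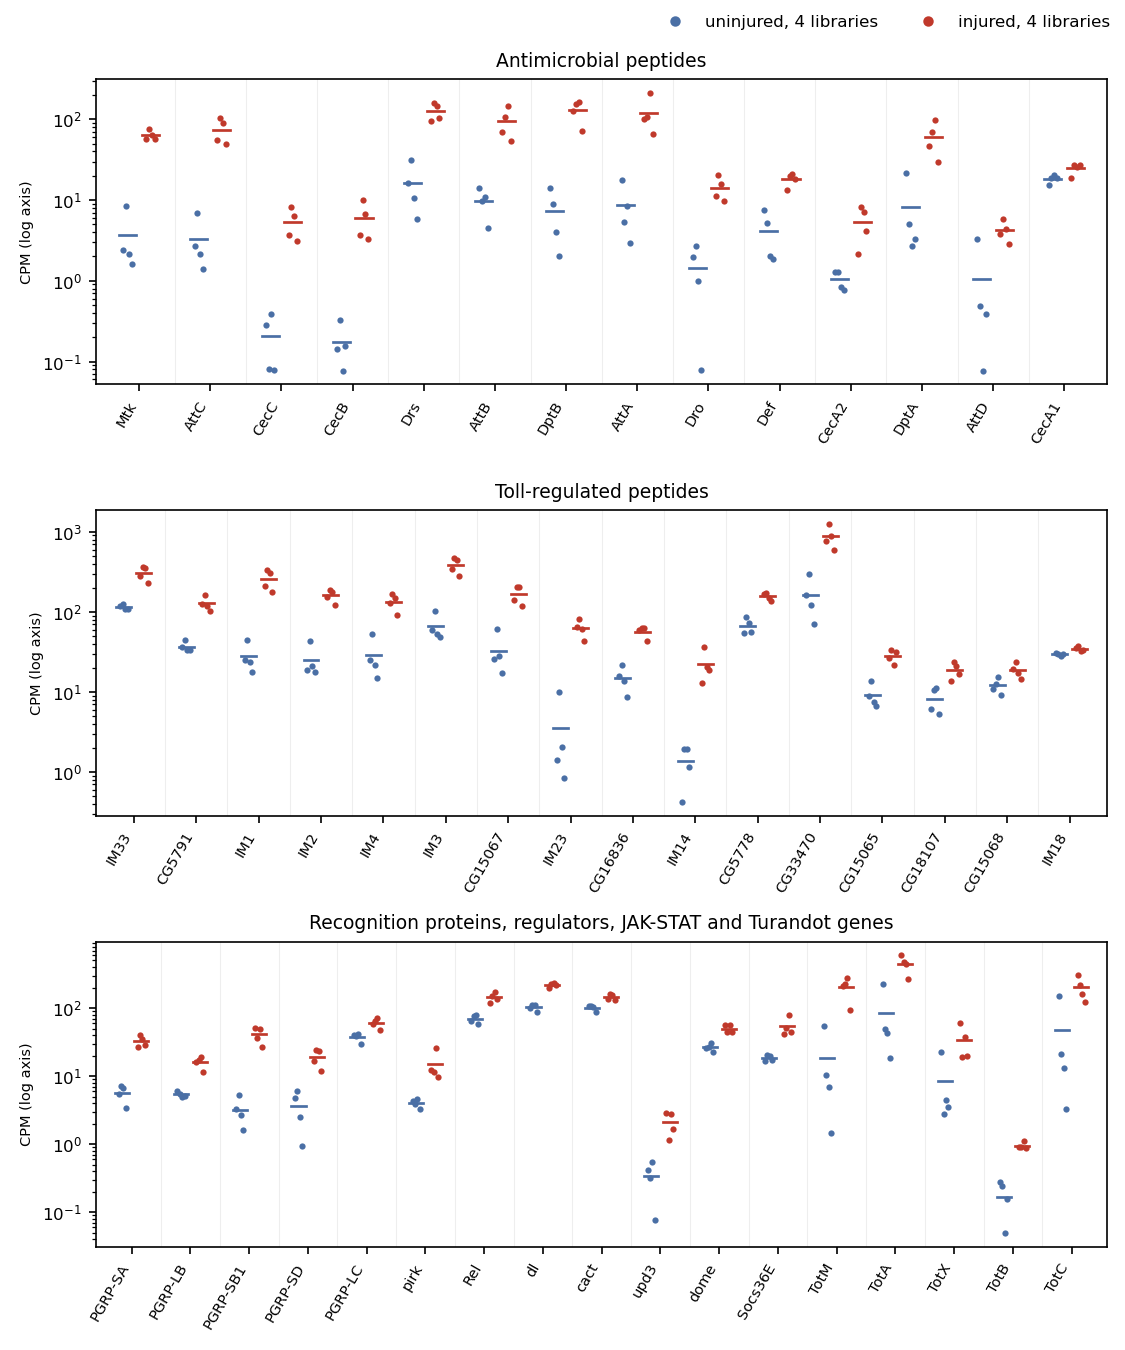
CPM on a log axis in each of the 4 uninjured (blue) and 4 injured (red) wild-type libraries for antimicrobial peptides, Toll peptides, and recognition, signalling, JAK-STAT and Turandot genes, with bars at group means and a value of 0 drawn at 0.05. Of the antimicrobial peptides 12 of 14 separate by group, and of the Toll peptides 15 of 16. Mtk is at 1.63 to 8.55 CPM uninjured and 56.7 to 76.1 CPM injured, while several Turandot genes are high in uninjured library 1.

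Of the peptidoglycan recognition proteins, 5 of 11 tested members rose, 0 fell and 6 did not pass, with a median of 1.36. PGRP-SA, the secreted receptor that starts the Toll cascade on Gram-positive peptidoglycan, was at 5.39, 7.18, 6.79 and 3.42 CPM uninjured and 26.5, 40.1, 35.7 and 29.0 CPM injured (2.52 ± 0.29, adjusted p = 1.17e-05). PGRP-SB1, an amidase that cleaves peptidoglycan, was at 3.26, 5.25, 2.70 and 1.63 CPM uninjured and 51.7, 36.6, 49.6 and 26.4 CPM injured (3.67 ± 0.46, adjusted p = 2.69e-05). Every injured value of both genes was above every uninjured one. PGRP-LB, an amidase that dampens Imd signalling, rose from 5.41 ± 0.535 to 15.99 ± 3.18 CPM (1.56 ± 0.19, adjusted p = 1.52e-05). PGRP-SD, which assists recognition, rose from 3.61 ± 2.32 to 18.96 ± 5.88 CPM (2.42 ± 0.42, adjusted p = 0.000911). PGRP-LC, the membrane receptor of the Imd pathway, rose less, from 37.8 ± 5.27 to 60.5 ± 9.53 CPM (0.68 ± 0.16, adjusted p = 0.0170). Of the members that did not pass, PGRP-SC2 was at 1.55, PGRP-SC1b at 1.36, PGRP-LF at 0.59, PGRP-LA at 0.37, PGRP-LD at 0.23 and the intracellular receptor PGRP-LE at 0.07. The call that ended with 1 library left out was that of PGRP-LC without uninjured library 4 or injured library 2 or 3 (adjusted p 0.0523 to 0.108).

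Inside the cell, some members of both cascades were called higher, beside 3.35% of all genes. Of 20 tested Imd members 3 rose and 0 fell, with a median of 0.15. Rel, the gene of Relish (3R at 9044183 to 9047977, dm6), was at 64.7, 77.6, 78.4 and 58.4 CPM uninjured and 119, 152, 172 and 135 CPM injured (1.05 ± 0.22, adjusted p = 0.00603). pirk, whose protein restrains Imd receptors, was at 4.26, 3.87, 4.55 and 3.34 CPM uninjured and 12.5, 11.5, 26.4 and 9.75 CPM injured (1.89 ± 0.31, adjusted p = 0.000490). Neither gene overlapped between the groups, and injured library 3 was the highest for both. Dredd, the caspase that cleaves Relish, was at 25.6 to 37.2 CPM uninjured and 37.1 to 41.999 CPM injured, so its groups overlapped (0.35 ± 0.10, adjusted p = 0.0485). The adaptor imd (0.34 ± 0.11, adjusted p = 0.108) and the kinase Tak1 (0.44 ± 0.13, adjusted p = 0.0572) did not pass. Of 12 tested Toll members inside the cell 2 rose and 0 fell, with a median of 0.12. dl, the gene of Dorsal, was at 99.9, 109, 112 and 88.9 CPM uninjured and 199, 224, 234 and 215 CPM injured (1.09 ± 0.15, adjusted p = 4.91e-05). Its inhibitor gene cact rose from 102 ± 10.1 to 145 ± 13.9 CPM (0.51 ± 0.13, adjusted p = 0.0282), while Dif was at -0.21 ± 0.11 (adjusted p = 0.416). Calls ended for Dredd without any library but uninjured library 3 (adjusted p 0.0544 to 0.280) and cact without uninjured library 1, 3 or 4 or injured library 2 or 3 (adjusted p 0.0515 to 0.180), so that 1 Toll member and 2 Imd members were left in those fits.

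The extracellular part of the Toll pathway rose in part. Of 13 tested members 4 rose and 0 fell, with a median of 0.17. The number called dropped to 1 without uninjured library 1 or 4 or injured library 2. The serpin nec, which restrains the cascade, rose from 27.9 ± 8.65 to 65.8 ± 13.03 CPM (1.24 ± 0.25, adjusted p = 0.00398). The protease Hayan (1.09 ± 0.26), the protease SPE that cuts the ligand (0.89 ± 0.24) and the Toll ligand spz (0.71 ± 0.19) were called higher with adjusted p of 0.0175, 0.0365 and 0.0379. The related ligand spz3, chosen after its values were seen, was at 6.53, 9.44, 8.64 and 7.46 CPM uninjured and 21.5, 36.6, 27.3 and 29.5 CPM injured (1.84 ± 0.28, adjusted p = 0.000213). The proteases grass (0.55) and spirit (0.42), which act upstream of SPE, did not pass. Single libraries ended the calls of Hayan without uninjured library 1 or 4 or injured library 2 (adjusted p 0.0512 to 0.105), SPE without uninjured library 1, 3 or 4 or injured library 2 or 3 (adjusted p 0.0527 to 0.189) and spz without uninjured library 1, 2 or 4 or injured library 2, 3 or 4 (adjusted p 0.0723 to 0.149).

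Serpins, inhibitors of such proteases, rose for 4 of 26 tested genes and fell for 0, with a median of -0.07. Spn55B was at 13.5, 11.4, 9.18 and 6.21 CPM uninjured and 45.3, 41.1, 49.7 and 34.6 CPM injured (2.10 ± 0.26, adjusted p = 1.84e-05). Spn88Eb rose from 10.3 ± 2.07 to 47.1 ± 17.9 CPM (2.20 ± 0.39, adjusted p = 0.00110), and Spn27A, which restrains melanization, from 38.4 ± 7.67 to 88.8 ± 19.3 CPM (1.21 ± 0.28, adjusted p = 0.0110). Of 24 melanization and clotting genes 4 rose and 0 fell (median 0.43), among them the clot component Tig (1.05 ± 0.21, adjusted p = 0.00301) and the chitinase-like Idgf3 (0.76 ± 0.16, adjusted p = 0.00566). The prophenoloxidase genes PPO1 (-0.36), PPO2 (0.03) and PPO3 (0.32), which make the enzymes of melanin formation, did not pass. Tep2, 1 of 4 tested thioester protein genes, which coat microbes for uptake, was at 96.4, 107, 108 and 72.4 CPM uninjured and 224, 310, 284 and 206 CPM injured (1.41 ± 0.25, adjusted p = 0.00110), and the other 3 did not pass. Without uninjured library 4 only 2 serpins and 2 melanization genes were called. Among the genes named, the call that ended was that of Spn27A without uninjured library 4 (adjusted p 0.0799).

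JAK-STAT signalling showed a cytokine, the receptor and the feedback inhibitor higher. Of 11 tested members 3 rose, 0 fell and 8 did not pass, with a median of 0.28, and 3 to 4 were called as each library was left out. The cytokine upd3 was at 0.426, 0.323, 0.540 and 0.0777 CPM uninjured and 2.89, 1.15, 2.82 and 1.67 CPM injured (2.58 ± 0.54, adjusted p = 0.00514). The receptor dome was at 25.8, 26.5, 30.7 and 23.0 CPM uninjured and 55.8, 45.0, 55.7 and 44.1 CPM injured (0.92 ± 0.13, adjusted p = 8.3e-05). The inhibitor Socs36E was at 16.6, 20.7, 19.5 and 17.2 CPM uninjured and 42.3, 50.9, 79.3 and 45.3 CPM injured (1.55 ± 0.20, adjusted p = 3.83e-05). None of the 3 overlapped between the groups, and Socs36E was highest in injured library 3. The cytokine upd2 did not pass (1.59 ± 0.52, adjusted p = 0.0998) although its 4 injured values lay above the uninjured ones. The kinase hop (0.03 ± 0.14, adjusted p = 0.945) and the transcription factor Stat92E (0.11 ± 0.12, adjusted p = 0.747) did not pass, nor did upd1 (0.28), the short receptor et (0.31), the phosphatase Ptp61F (0.19), ken (0.21) and Su(var)2-10 (-0.05).

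The Turandot genes, secreted stress peptides downstream of JAK-STAT, had a wide spread among uninjured libraries. Of 5 tested members 4 rose, 0 fell and 1 did not pass, with a median of 2.404. TotM was at 54.4, 10.6, 6.87 and 1.48 CPM uninjured and 210, 222, 280 and 94.7 CPM injured (3.53 ± 0.77, adjusted p = 0.00729). TotA was at 227, 49.0, 43.2 and 18.4 CPM uninjured and 594, 472, 441 and 264 CPM injured (2.404 ± 0.57, adjusted p = 0.0151). Uninjured library 1 was far above the other uninjured libraries for both genes, though below every injured one. TotX was at 22.7, 2.74, 4.48 and 3.57 CPM uninjured and 60.9, 19.1, 37.2 and 19.8 CPM injured, so that uninjured library 1 lay within the injured range (2.10 ± 0.55, adjusted p = 0.0293). TotB was low, at 0 to 0.284 CPM uninjured and 0.873 to 1.13 CPM injured (2.51 ± 0.70, adjusted p = 0.0427), and TotC did not pass (2.14 ± 0.77, adjusted p = 0.147). The number called dropped to 1 without uninjured library 2, 3 or 4, and calls ended for TotA without uninjured library 2, 3 or 4 (adjusted p 0.0571 to 0.0638), TotX without uninjured library 2, 3 or 4 or injured library 1 or 3 (adjusted p 0.0694 to 0.139) and TotB without any of the 8 libraries (adjusted p 0.0586 to 0.145). Without uninjured library 1 the log2 fold changes were 4.999 for TotM, 3.59 for TotA and 3.23 for TotX. Turandot copies resemble each other, so reads may be shared.

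Some genes of the JNK pathway and of wounds were called higher. Of 25 tested members 7 rose, 0 fell and 18 did not pass, with a median of 0.31. Ets21C, a transcription factor induced in damaged tissue, was at 5.25, 6.46, 4.17 and 4.12 CPM uninjured and 17.8, 16.5, 23.8 and 15.2 CPM injured (1.87 ± 0.25, adjusted p = 5.38e-05). puc, the phosphatase that shuts off JNK, was at 33.2, 34.1, 30.4 and 28.0 CPM uninjured and 48.4, 60.4, 70.3 and 47.1 CPM injured (0.85 ± 0.18, adjusted p = 0.00518). Injured library 3 was the highest for both. The stress gene Gadd45 rose from 8.52 ± 1.24 to 18.5 ± 3.996 CPM (1.12 ± 0.20, adjusted p = 0.00110), and the matrix metalloprotease gene Mmp1 from 53.9 ± 7.66 to 95.3 ± 9.41 CPM (0.82 ± 0.16, adjusted p = 0.00234). Timp, the inhibitor of such proteases, was at 86.6, 85.4, 86.3 and 67.3 CPM uninjured and 167, 200, 180 and 185 CPM injured (1.17 ± 0.13, adjusted p = 7.88e-06). The growth factor gene Pvf1 (0.51 ± 0.12, adjusted p = 0.0140) and the Jun gene Jra (0.47 ± 0.11, adjusted p = 0.0199) were called higher. The JNK gene bsk (-0.27 ± 0.12, adjusted p = 0.314), the tumour necrosis factor gene egr (-0.12 ± 0.11, adjusted p = 0.688) and the Fos gene kay (0.41 ± 0.19, adjusted p = 0.314) did not pass. The number called dropped to 4 without uninjured library 4, and calls ended for Pvf1 without uninjured library 4 (adjusted p 0.0751) and Jra without uninjured library 1, 3 or 4 or injured library 2 or 3 (adjusted p 0.0508 to 0.137).

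Of 14 tested cell death genes 1 rose, 0 fell and 13 did not pass, a count that does not set them apart from all genes, of which 3.79% were called. The caspase inhibitor Diap1 rose from 149 ± 11.0 to 208 ± 8.33 CPM (0.48 ± 0.11, adjusted p = 0.00761). The call that ended with 1 library left out was that of Diap1 without uninjured library 4 (adjusted p 0.0746). The death inducers hid (-0.49 ± 0.15, adjusted p = 0.0827), rpr (-0.40 ± 0.46, adjusted p = 0.753) and skl (-0.45 ± 0.33, adjusted p = 0.603) did not pass. The caspase gene Strica, outside that list and chosen after its values were seen, was at 1.99, 2.02, 2.24 and 1.55 CPM uninjured and 7.76, 4.43, 11.7 and 3.93 CPM injured (1.80 ± 0.31, adjusted p = 0.000813).

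Many actin genes and some adhesion genes were called higher by small amounts, in lists chosen after their values were seen. Of 21 actin filament genes 15 rose, 0 fell and 6 did not pass (median 0.51), with 10 to 14 calls as each library was left out. Act5C, a cytoplasmic actin, was at 459, 384, 375 and 392.4 CPM uninjured and 903, 822, 960 and 768 CPM injured (1.101 ± 0.17, adjusted p = 0.000208). capt, which recycles actin monomers, was at 53.8, 55.6, 56.8 and 44.6 CPM uninjured and 112, 107, 101 and 106 CPM injured (1.02 ± 0.13, adjusted p = 3.21e-05). The groups of both genes did not overlap, with every injured value above every uninjured one. The filamin gene cher (0.89 ± 0.13), the capping protein genes cpa (0.65 ± 0.11) and cpb (0.64 ± 0.12), the myosin light chain gene sqh (0.88 ± 0.16) and the cofilin gene tsr (0.46 ± 0.10) rose, with adjusted p of 0.000170, 0.000708, 0.00132, 0.00141 and 0.00817. Of 8 genes of the Arp2/3 complex, which starts branched filaments, 4 rose (median 0.60), with 2 to 3 calls over the 8 fits and 2 without uninjured library 1, 2 or 3 or injured library 3. Arp3 (0.66 ± 0.09, adjusted p = 8.58e-05) and Arpc3B (0.95 ± 0.15, adjusted p = 0.000299) had the smallest p of these. SCAR (0.05), Hem (0.11) and Abi (0.13), which switch that complex on, did not pass.

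Of 18 integrin and adhesion genes 8 rose and 0 fell (median 0.43), with 6 to 9 calls over the 8 fits. The integrin alpha subunit gene scb was at 41.6, 38.8, 38.8 and 41.3 CPM uninjured and 101, 82.2, 147 and 71.9 CPM injured (1.32 ± 0.23, adjusted p = 0.000813). Itgbn, the integrin beta subunit of phagocytes, was at 10.5, 9.04, 6.79 and 8.62 CPM uninjured and 23.7, 17.0, 28.7 and 15.6 CPM injured (1.28 ± 0.22, adjusted p = 0.000609). For both, injured libraries 1 and 3 were the higher ones, and the groups did not overlap. The main beta subunit gene mys (0.74 ± 0.14, adjusted p = 0.00171) and the talin gene rhea (0.74 ± 0.13, adjusted p = 0.00107) rose, while the alpha subunit genes if (0.31) and mew (-0.10) did not pass. AnxB9, an annexin that binds membranes with calcium, was at 114.8, 127, 128 and 99.1 CPM uninjured and 275, 283, 262 and 264 CPM injured (1.21 ± 0.12, adjusted p = 3.29e-06). Swim, a secreted cathepsin-like protein that binds Wingless, had the smallest adjusted p of all genes, at 42.01, 37.3, 36.5 and 36.2 CPM uninjured and 88.4, 75.1, 101 and 77.4 CPM injured (1.17 ± 0.10, adjusted p = 6.54e-07).

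The CCT chaperonin, the ring that folds actin and tubulin, was called higher in every subunit, in a list chosen after its values were seen. All 8 subunit genes were called higher, with log2 fold changes of 0.61 to 0.98 (median 0.76) and a summed level of 267 to 359 CPM uninjured and 482 to 567 CPM injured. CCT3 was at 24.4, 29.9, 20.6 and 22.8 CPM uninjured and 52.8, 40.2, 54.7 and 45.1 CPM injured (0.98 ± 0.17, adjusted p = 0.000977). CCT1 was at 56.5, 56.1, 44.6 and 40.0 CPM uninjured and 83.8, 80.5, 95.5 and 86.1 CPM injured (0.81 ± 0.14, adjusted p = 0.000708). Groups did not overlap for either gene. The number called dropped to 5 without uninjured library 4, and calls ended for CCT4 without uninjured library 4 (adjusted p 0.0571), CCT6 without uninjured library 2, 3 or 4 or injured library 1, 3 or 4 (adjusted p 0.0658 to 0.255) and CCT8 without uninjured library 4 (adjusted p 0.0731).

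Heat shock genes of the Hsp70 family rose at some copies. Of 13 tested genes of this family and its partners 5 rose and 0 fell (median 0.50). The number called dropped to 3 without uninjured library 4 or injured library 3. Hsp70Ab was at 29.9, 36.2, 18.1 and 11.8 CPM uninjured and 115.3, 96.7, 136 and 74.5 CPM injured (2.14 ± 0.30, adjusted p = 8.3e-05). Hsp70Bbb (1.505 ± 0.24) and Hsp70Bb (1.24 ± 0.25) rose with adjusted p of 0.000417 and 0.00405. Hsp70 copies are near-identical, so the split of reads between them is uncertain. The chaperones Hsp83 (0.28) and Hsp68 (0.50) did not pass. Of 10 small heat shock protein genes l(2)efl alone rose, at 153, 173, 140 and 125 CPM uninjured and 409, 396, 319 and 419 CPM injured (1.38 ± 0.22, adjusted p = 0.000252), while Hsp22 (0.62), Hsp23 (0.33), Hsp26 (0.35) and Hsp27 (0.35) did not pass. Of 12 genes of the unfolded protein response, which answers stress in the endoplasmic reticulum, none passed, with a median of -0.04. Of 11 genes of the integrated stress response 3 were called higher: the pseudokinase trbl (0.89 ± 0.17, adjusted p = 0.00179), the translation repressor Thor (0.73 ± 0.18, adjusted p = 0.0160) and the asparagine synthetase AsnS (0.94 ± 0.26, adjusted p = 0.0407). Calls that ended were those of Thor without uninjured library 1 or 4 or injured library 2 or 3 (adjusted p 0.0568 to 0.108) and AsnS without uninjured library 1, 2 or 4 or injured library 1, 2 or 3 (adjusted p 0.0540 to 0.167).

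Some genes of the nucleolus were called higher. Of 19 tested ribosome biogenesis genes 8 rose and 0 fell (median 0.56), and the number dropped to 5 without uninjured library 4. nop5, a core protein of the particles that modify ribosomal RNA, was at 14.3, 18.2, 15.5 and 14.2 CPM uninjured and 35.5, 30.2, 36.8 and 39.5 CPM injured (1.19 ± 0.14, adjusted p = 1.2e-05). Its partner Nop56 (0.86 ± 0.13, adjusted p = 0.000170) and the pseudouridine synthase gene Nop60B (1.001 ± 0.14, adjusted p = 8.63e-05) rose. hoip, another protein of such particles, chosen after its values were seen, rose from 5.20 ± 1.04 to 15.5 ± 1.65 CPM (1.57 ± 0.21, adjusted p = 4.57e-05). Of 92 genes listed as ribosomal proteins 1 was called (0.61 ± 0.14, adjusted p = 0.00951), beside 3.35% of all genes higher. That gene, RpLP0-like, is by its symbol a relative of a ribosomal protein. The median of that list was 0.35, with a summed level of 19289 to 24954 CPM uninjured and 25083 to 29009 CPM injured. Of the 92 genes 84 had a log2 fold change above 0. For 40 of them all injured values lay above the uninjured ones, against 8.5% of all genes. In a fit of the 8 wild-type libraries alone 7 were called higher, beside 527 of all genes. The call that ended was that of RpLP0-like without uninjured library 4 (adjusted p 0.0904).

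Enzymes that make purines and folate units rose in part, in a list chosen after its values were seen: 4 of 11 rose and 0 fell, with a median of 0.40. Nmdmc, a mitochondrial folate enzyme, was at 11.2, 9.93, 11.4 and 9.63 CPM uninjured and 29.1, 39.9, 45.5 and 26.7 CPM injured (1.74 ± 0.21, adjusted p = 1.23e-05). The purine enzyme gene Paics was at 45.6, 70.4, 57.6 and 31.8 CPM uninjured and 126, 156, 175 and 72.5 CPM injured (1.36 ± 0.29, adjusted p = 0.00543). Injured libraries 2 and 3 were the higher ones for both. The next enzyme of that path, AdSL, rose by 0.72 ± 0.14 (adjusted p = 0.00323) and Shmt, which loads folate from serine, by 1.09 ± 0.24 (adjusted p = 0.00935), while the entry enzymes Prat (0.25) and Prat2 (0.05) did not pass. Of 13 DNA replication genes, also listed after their values were seen, 4 rose (median 0.93), and the number called ranged from 1 without uninjured library 2 or 4 or injured library 4 to 7 without injured library 2. Cdc6, which licenses origins, was at 4.40, 3.71, 3.47 and 4.04 CPM uninjured and 10.3, 8.40, 11.1 and 6.98 CPM injured (1.23 ± 0.23, adjusted p = 0.00153). RnrS, a subunit of the enzyme that makes deoxynucleotides, was at 11.2, 8.55, 7.87 and 7.77 CPM uninjured and 16.1, 12.3, 12.7 and 25.8 CPM injured (0.94 ± 0.26, adjusted p = 0.0379), with injured library 4 the highest. That library also held the ovary and egg transcripts, whose part in the replication genes was not tested. Calls ended for Shmt without uninjured library 4 (adjusted p 0.0731) and RnrS without uninjured library 2, 3 or 4 or injured library 1 or 4 (adjusted p 0.0650 to 0.211).

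**Figure D4:**
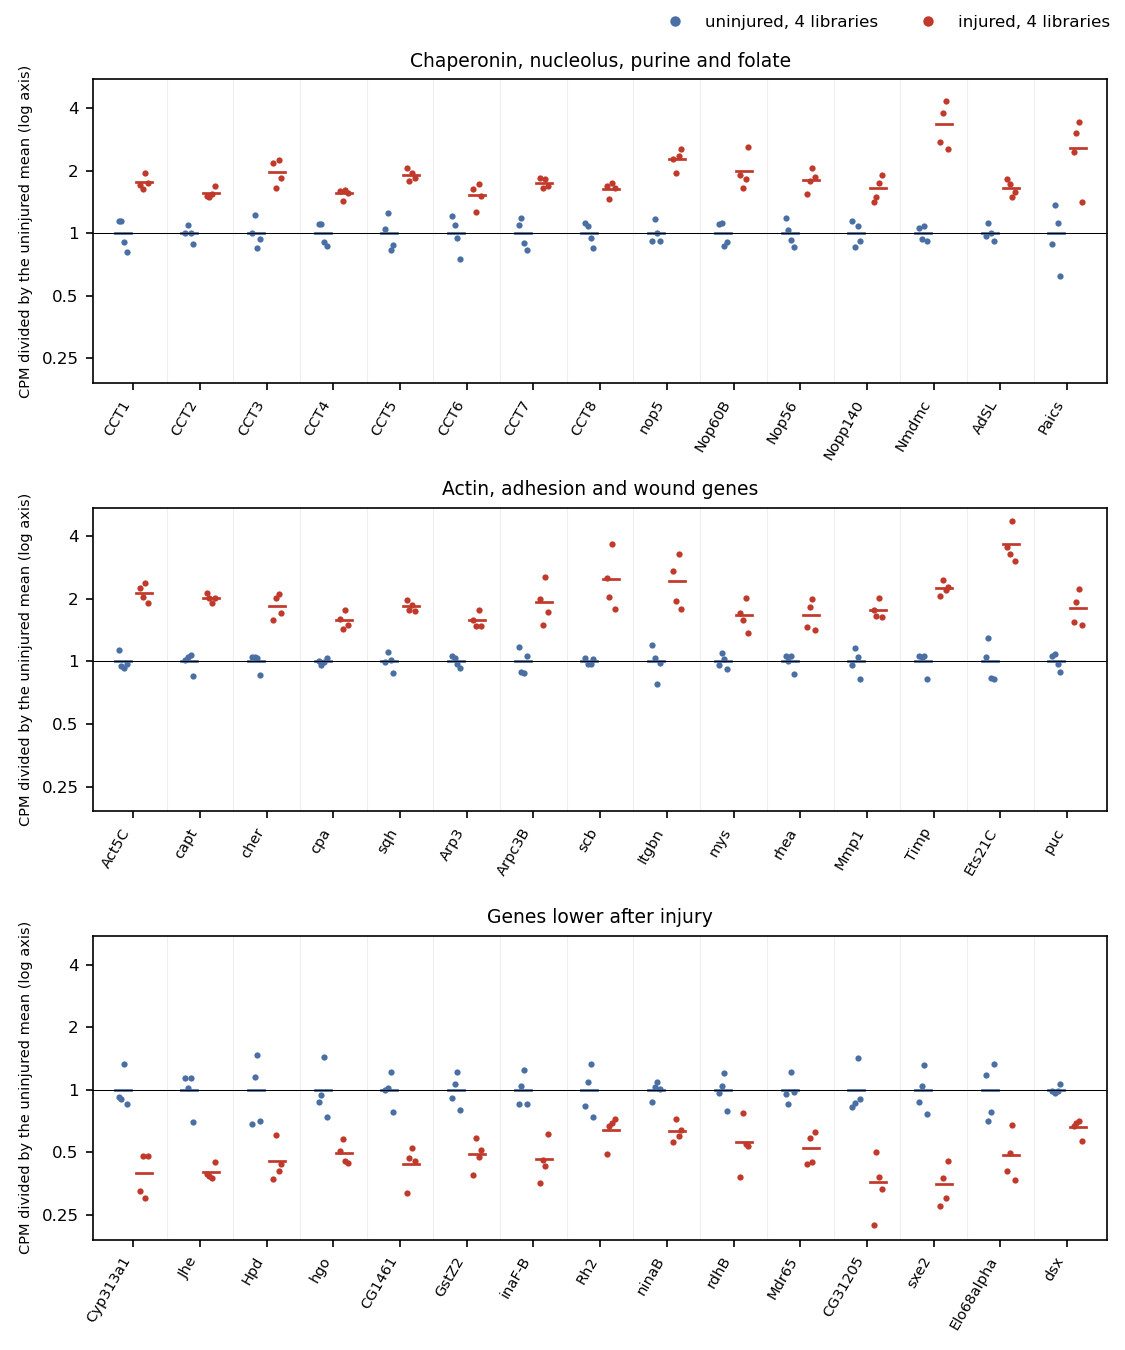
CPM divided by the gene's uninjured mean, on a log axis, in each uninjured (blue) and injured (red) wild-type library, with bars at group means, for chaperonin, nucleolar and purine genes, for actin, adhesion and wound genes, and for genes lower after injury. Act5C, at 375 to 459 CPM uninjured and 768 to 960 CPM injured, shows the tight groups of the actin genes, and the genes of the bottom panel lie lower in the injured libraries.

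Summed levels of detoxification enzyme families did not all move the same way. Glutathione transferases summed to 1688 to 1858 CPM uninjured and 2078 to 2474 CPM injured. UDP-glycosyltransferases summed to 1179 to 1312 CPM uninjured and 980 to 1072 CPM injured. Neither sum overlapped between the groups, while those of cytochrome P450 and redox defence genes did. The first sum holds GstD1, at 258 to 436 CPM uninjured and 646 to 739 CPM injured, and was not taken without it. All injured values lay above the uninjured ones for 10 of 35 glutathione transferases, against 8.5% of all genes. They lay below for 3 of 29 UDP-glycosyltransferases, against 4.54%. Of 35 glutathione transferase genes 7 rose and 1 fell (median 0.19), and the number lower dropped to 0 without uninjured library 3 or injured library 1. GstD1, an abundant enzyme induced by oxidants, was at 357, 436, 347 and 258 CPM uninjured and 714, 721, 739 and 646 CPM injured (1.01 ± 0.17, adjusted p = 0.000490). GstE10 (1.28 ± 0.19) and GstD9 (0.83 ± 0.14) rose with adjusted p of 0.000202 and 0.000708. Of 79 cytochrome P450 genes 1 rose and 1 fell (median -0.12), beside 3.35% of all genes higher and 0.433% lower. Without uninjured library 4 there were 2 lower. Cyp4p3 was at 37.3, 39.9, 44.7 and 36.6 CPM uninjured and 98.3, 96.8, 95.5 and 95.4 CPM injured (1.28 ± 0.16, adjusted p = 2.11e-05). Cyp313a1 was at 405, 396, 582 and 375 CPM uninjured and 143, 212, 133 and 212 CPM injured (-1.33 ± 0.29, adjusted p = 0.00732). The 4 injured values of Cyp4p3 were nearly equal. Of 29 UDP-glycosyltransferase genes (median -0.27) and 20 redox defence genes (median 0.21) none passed, with 1 redox gene called without injured library 4. Of 5 metallothioneins, metal-binding proteins listed after their values were seen, MtnD (2.04 ± 0.54, adjusted p = 0.0308) and MtnE (1.78 ± 0.50, adjusted p = 0.0480) were called higher, and of 9 iron genes the transferrins Tsf1 (0.73 ± 0.20, adjusted p = 0.0466) and Tsf2 (0.57 ± 0.14, adjusted p = 0.0181) were. Each of these 4 calls ended with 1 library left out, those of MtnD without uninjured library 2, 3 or 4 or injured library 1 or 3 (adjusted p 0.0846 to 0.120), MtnE without uninjured library 2, 3 or 4 or injured library 1, 3 or 4 (adjusted p 0.0674 to 0.167), Tsf1 without uninjured library 1, 3 or 4 or injured library 1, 2 or 3 (adjusted p 0.0679 to 0.237) and Tsf2 without uninjured library 4 or injured library 2 (adjusted p 0.0508 to 0.108).

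Among genes of fasting and metabolism, Pepck1, the entry enzyme of gluconeogenesis, was at 59.9, 64.9, 45.5 and 43.4 CPM uninjured and 186, 224, 292 and 131 CPM injured (1.96 ± 0.26, adjusted p = 4.08e-05). CG45087 had the same count as Pepck1 in every library, so both names stand for 1 measurement. Uro, the urate oxidase of the Malpighian tubules, chosen after its values were seen, was at 49.8, 58.1, 47.0 and 43.4 CPM uninjured and 201, 193, 322 and 119 CPM injured (2.07 ± 0.24, adjusted p = 1.23e-05). Both were highest in injured library 3 and lowest of the injured in library 4. b, the enzyme that makes beta-alanine for cuticle tanning, also chosen after its values were seen, rose from 42.4 ± 8.05 to 105 ± 10.9 CPM (1.32 ± 0.21, adjusted p = 0.000260). Of 42 digestive enzymes 1 rose and 0 fell (median 0.45), beside 3.35% of all genes higher, with 2 higher without uninjured library 2 or injured library 4. The amylase gene Amy-p was at 9.51, 13.4, 6.10 and 6.21 CPM uninjured and 45.5, 57.3, 57.5 and 23.4 CPM injured (2.38 ± 0.52, adjusted p = 0.00768). None of 83 nuclear oxidative phosphorylation genes, 12 mitochondrial genome genes and 14 glycolysis genes passed, with medians of 0.05, -0.15 and 0.01. None of 47 proteasome and 20 autophagy genes passed either, with medians of 0.12 and 0.09.

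Some of the steepest increases were at genes outside these groups. Fst, a gene known for induction in recovery from cold, was at 6.96, 2.42, 12.8 and 0.621 CPM uninjured and 271, 170, 635 and 111 CPM injured (5.71 ± 0.82, adjusted p = 0.000107). Acbp6, an acyl-CoA-binding protein gene, was at 0.284, 0.242, 0.231 and 0 CPM uninjured and 4.11, 4.28, 23.1 and 1.38 CPM injured (5.40 ± 0.91, adjusted p = 0.000657). CG13324, for which no role is given here, was at 0.994, 0.968, 0.849 and 1.94 CPM uninjured and 20.8, 29.0, 62.6 and 8.37 CPM injured (4.62 ± 0.54, adjusted p = 1.17e-05). All 3 were highest in injured library 3 and lowest of the injured in library 4, as was the summed level of the digestive enzymes. With the digestive enzyme level as a covariate, an alternative chosen after seeing the data, the log2 fold changes were 5.19 for Fst, 4.53 for Acbp6 and 4.20 for CG13324, and all 3 were called (adjusted p = 0.000153, 0.000894 and 1.97e-06). With no covariate, and without injured library 3, the log2 fold changes were 5.02, 4.08 and 3.99, all called, and that of Fst was 6.63 without uninjured library 3. What part the digestive enzyme level has in the changes of Fst, Acbp6 and CG13324 was not tested. The chitinase gene Cht4, chosen after its values were seen, was at 3.26, 4.36, 2.86 and 3.65 CPM uninjured and 15.4, 14.4, 72.2 and 11.2 CPM injured (2.97 ± 0.55, adjusted p = 0.00155), and its log2 fold change was 1.94 without injured library 3.

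Other steep increases were more even among the injured libraries. lncRNA:IBIN, an infection-induced gene that the annotation used here lists as protein-coding despite its symbol, had 0, 3, 0 and 0 counts uninjured and 43, 85, 33 and 32 counts injured, a ratio of 71.9 (95% counting interval 24.6 to 349, counting error only; adjusted p = 0.000208). CG18557, with no role given here, was at 1.42, 0.403, 0.154 and 0.311 CPM uninjured and 11.7, 8.70, 14.0 and 7.42 CPM injured (4.38 ± 0.48, adjusted p = 6.87e-06), with a log2 fold change of 5.11 without uninjured library 1. GNBP-like3, a small relative of glucan-binding proteins, was at 22.6, 31.9, 17.7 and 13.4 CPM uninjured and 175, 246, 228 and 142 CPM injured (3.21 ± 0.39, adjusted p = 1.84e-05). Listericin, the gene of an antibacterial protein, rose from 16.6 ± 4.46 to 66.4 ± 9.58 CPM (1.99 ± 0.28, adjusted p = 6.52e-05); it and GNBP-like3 were chosen after their values were seen. ninaD, a scavenger receptor that takes up carotenoids, was at 3.26, 1.05, 1.08 and 1.01 CPM uninjured and 21.8, 19.7, 22.5 and 11.0 CPM injured (3.65 ± 0.46, adjusted p = 2.66e-05). None of these overlapped between the groups, which was a condition for genes named as largest increases. Arc1, an activity-regulated gene whose protein forms capsids at synapses, was at 294, 227, 196 and 152 CPM uninjured and 613, 514, 749 and 643 CPM injured (1.54 ± 0.21, adjusted p = 4.91e-05), and Arc2 rose by 1.39 ± 0.23 (adjusted p = 0.000580), while the activity-regulated factors Hr38 (-0.43) and sr (0.02) did not pass.

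Some membrane trafficking genes were called higher by small amounts, in lists chosen after their values were seen. Of 19 ESCRT genes, which sort and repair membranes, 7 rose and 0 fell (median 0.41), and the number dropped to 1 without uninjured library 4. CHMP2B rose from 13.2 ± 3.31 to 24.5 ± 1.03 CPM (0.89 ± 0.20, adjusted p = 0.00821), and Mvb12 was at 24.7, 27.3, 30.3 and 22.6 CPM uninjured and 42.2, 41.5, 35.4 and 39.2 CPM injured (0.59 ± 0.11, adjusted p = 0.00229). Of 17 tetraspanins of the Tsp42E cluster 4 rose and 0 fell (median 0.36), and the number dropped to 1 without uninjured library 4. Tsp42Eh was at 18.8 to 23.6 CPM uninjured and 33.6 to 36.3 CPM injured (0.69 ± 0.14, adjusted p = 0.00398). Of the genes named, the call that ended was that of CHMP2B without uninjured library 4 (adjusted p 0.0729).

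Far fewer genes fell, and by less. sxe2, a lipase-like gene, was at 33.5, 40.0, 50.2 and 29.1 CPM uninjured and 10.5, 14.4, 11.6 and 17.3 CPM injured (-1.49 ± 0.21, adjusted p = 7.81e-05). CG31205, a protease-like gene, was at 42.3, 44.2, 72.7 and 46.3 CPM uninjured and 11.4, 25.8, 19.4 and 17.1 CPM injured (-1.47 ± 0.30, adjusted p = 0.00372). Uninjured library 3 was the highest for both. The groups did not overlap, which was a condition for genes named as largest decreases. Jhe, the esterase that breaks down juvenile hormone, was at 11.1, 9.93, 11.1 and 6.76 CPM uninjured and 3.80, 3.74, 3.66 and 4.37 CPM injured (-1.31 ± 0.24, adjusted p = 0.00134). jhamt, the methyltransferase late in synthesis of that hormone, was at 8.23, 12.7, 7.87 and 17.1 CPM uninjured and 39.6, 22.6, 31.6 and 25.1 CPM injured (1.35 ± 0.34, adjusted p = 0.0206). The breakdown gene thus fell and the synthesis gene rose, and the other 7 of 9 juvenile hormone genes, listed after their values were seen, did not pass. The call that ended was that of jhamt without uninjured library 1 or 3 or injured library 1 or 3 (adjusted p 0.0539 to 0.0894).

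Some tyrosine breakdown genes fell, in a list chosen after its values were seen: 4 of 7 fell and 0 rose, with a median of -1.01, and the number called dropped to 0 without uninjured library 3. Hpd, an early dioxygenase of the path, was at 123, 207, 263 and 127 CPM uninjured and 66.8, 109, 73.3 and 78.9 CPM injured (-1.14 ± 0.29, adjusted p = 0.0226). hgo, the next dioxygenase, was at 22.7, 24.5, 37.6 and 19.3 CPM uninjured and 13.2, 15.1, 11.8 and 11.5 CPM injured (-1.01 ± 0.25, adjusted p = 0.0179). Uninjured library 3 was the highest for both, and injured values lay below all uninjured ones. GstZ2, of the transferase class that holds the isomerase of the path, fell by 1.02 and CG1461, a tyrosine aminotransferase, by 1.18 on the log2 scale (adjusted p = 0.0158 and 0.0349). Faa, the last enzyme, was at -0.08 ± 0.24 (adjusted p = 0.921). The calls ended for Hpd without uninjured library 2 or 3 or injured library 1, 3 or 4 (adjusted p 0.0595 to 0.118), hgo without uninjured library 3 or injured library 3 or 4 (adjusted p 0.0591 to 0.105), GstZ2 without uninjured library 3 or injured library 1 (adjusted p 0.0595 to 0.0654) and CG1461 without any library but uninjured library 4 (adjusted p 0.0584 to 0.116). Uninjured library 3 also had the lowest digestive enzyme level. With that level as a covariate, an alternative chosen after seeing the data, the log2 fold changes were -0.96 for Hpd, -0.85 for hgo, -0.88 for GstZ2 and -0.98 for CG1461, and all 4 were called (adjusted p = 0.0272, 0.0138, 0.00959 and 0.0196). That fit still holds uninjured library 3, and the part of the digestive enzyme level in these changes was not tested.

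The eye genes had a median below 0, and 2 passed the test. Of 25 eye and phototransduction genes 2 fell and 0 rose, beside 0.433% of all genes lower, with a median of -0.42. Their summed level was 9376 to 14283 CPM uninjured and 7899 to 9103 CPM injured, with no overlap. Of the 25 genes 1 had a log2 fold change above 0. For 11 of them all injured values lay below the uninjured ones, against 4.54% of all genes. In a fit of the 8 wild-type libraries alone 6 were called lower, beside 128 of all genes. inaF-B, needed for the light-gated channel TRP, was at 89.3, 109, 130 and 89.7 CPM uninjured and 37.4, 48.2, 44.8 and 63.7 CPM injured (-1.10 ± 0.20, adjusted p = 0.00156). Rh2, the opsin of the ocelli, was at 71.4, 92.5, 114 and 63.2 CPM uninjured and 41.7, 56.7, 59.2 and 61.5 CPM injured (-0.64 ± 0.17, adjusted p = 0.0354). The injured values of both were below all uninjured values. The main opsin gene ninaE (-0.54 ± 0.20, adjusted p = 0.168) and the channel gene trp (-0.41 ± 0.18, adjusted p = 0.296) did not pass. Of 8 carotenoid handling genes, a separate list, 2 rose and 2 fell (median -0.06). The number lower dropped to 0 without uninjured library 3 or injured library 1, and the number higher to 1 in each of the 8 fits but that without uninjured library 3. Among them ninaB, which makes the retinal of opsins from carotenoids, fell from 12.2 ± 1.12 to 7.70 ± 0.859 CPM (-0.66 ± 0.16, adjusted p = 0.0151). Calls ended for Rh2 without uninjured library 2 or 3 or injured library 1, 2 or 3 (adjusted p 0.0625 to 0.189) and ninaB without uninjured library 3 or injured library 1 (adjusted p 0.0523 to 0.0531).

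Markers of other cell types had few calls, beside 3.79% of all genes. Of 17 glia and engulfment genes 1 was called, and 1 more, higher, without injured library 4. The called gene Mdr65, a transporter of the blood-brain barrier, was at 25.98, 23.3, 33.2 and 26.6 CPM uninjured and 12.02, 16.03, 12.3 and 17.2 CPM injured (-0.91 ± 0.20, adjusted p = 0.00638). None of 21 neuron genes (median -0.19), 26 neuropeptide genes (median 0.08) and 23 muscle genes (median -0.06) was called. The neuron genes summed to 2985 to 4001 CPM uninjured and 2485 to 3202 CPM injured, and the muscle genes to 16016 to 16064 CPM and 14940 to 17079 CPM. Of 18 hemocyte and matrix genes, which mark blood cells and basement membrane, NimC2 was called lower (-1.80 ± 0.48, adjusted p = 0.0349) and NimB1 higher (1.15 ± 0.33, adjusted p = 0.0474). These calls ended for NimC2 without any library but uninjured library 1 (adjusted p 0.0579 to 0.117) and NimB1 without any library but injured library 4 (adjusted p 0.0509 to 0.222). None of 7 fat body genes, 27 testis genes, 46 accessory gland genes and 11 clock genes was called.

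Ovary and egg transcripts called higher rest on injured library 4. dhd was at 2.84, 2.42, 1.31 and 2.64 CPM uninjured and 1.37, 2.67, 3.1003 and 88.4 CPM injured (3.42 ± 0.83, adjusted p = 0.0171). yl, the yolk receptor of the oocyte, was at 0.284, 0.323, 0.694 and 0.777 CPM uninjured and 0.457, 0.687, 0.705 and 21.7 CPM injured (3.48 ± 0.91, adjusted p = 0.0293). wisp, a poly(A) polymerase of the egg, was at 0.426, 1.37, 1.62 and 1.94 CPM uninjured and 1.52, 0.993, 1.41 and 30.5 CPM injured (2.66 ± 0.74, adjusted p = 0.0444). Without injured library 4 their log2 fold changes were 0.08, 0.21 and -0.13, and they lost their calls (adjusted p = 0.935, 0.920 and 0.922). The calls of eloF and APC7, which are not in the ovary and egg list and were chosen after their values were seen, ended too (adjusted p = 0.867 and 0.619). Over all libraries left out, calls ended for dhd without uninjured library 2, 3 or 4 or injured library 4 (adjusted p 0.0502 to 0.935), yl without uninjured library 1, 2, 3 or 4 or injured library 4 (adjusted p 0.0753 to 0.920) and wisp without uninjured library 1, 2, 3 or 4 or injured library 4 (adjusted p 0.103 to 0.922). psd, an egg-shell gene, was low but had 6, 6, 2 and 14 counts injured against 0, 0, 0 and 1 counts uninjured, a ratio of 31.3 (95% counting interval 5.62 to 1236; adjusted p = 0.00700).

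Per length, the highest levels among called genes in injured flies were those of Thor at 1812 TPM, a level scaled to transcript length and library size, from 1076 TPM uninjured, and CG18067, with no role given here, at 1562 TPM, from 716 TPM. GstD1 (1315 TPM), IM33 (1263 TPM), TotA (1203 TPM), CG33470 (1191 TPM) and IM1 (1123 TPM) came next. Uninjured, IM1 stood at 120 TPM, below IM33 at 468 TPM and TotA at 232 TPM. CG18067 was at 638, 941, 772 and 465 CPM uninjured and 1376, 1943, 1474 and 1281 CPM injured (1.11 ± 0.26, adjusted p = 0.0155). Of these genes, calls ended for CG18067 without uninjured library 1 or 4 or injured library 2 (adjusted p 0.0543 to 0.0943), Thor without uninjured library 1 or 4 or injured library 2 or 3 (adjusted p 0.0568 to 0.108) and TotA without uninjured library 2, 3 or 4 (adjusted p 0.0571 to 0.0638).

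At the level of transcripts, 263 of 26667 tested were called (0.986%), 238 higher (0.892%) and 25 lower (0.0937%), and 236 of them belong to called genes. Transcripts of a gene share exons, so the split of reads between them is an estimate. kay, whose gene-level change did not pass, had the transcript kay-RB called, from 13.1 ± 3.52 to 37.3 ± 6.23 CPM (1.51 ± 0.19, adjusted p = 0.000315). For the Imd kinase Tak1 the transcript Tak1-RB was called, from 10.7 ± 2.42 to 20.3 ± 1.47 CPM (0.92 ± 0.19, adjusted p = 0.0169), while the gene did not pass. Both were chosen after their values were seen. For dl the called transcript dl-RF went from 76.5 ± 12.2 to 174 ± 6.47 CPM (1.18 ± 0.16, adjusted p = 0.000490).

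The wild-type response went the same way in both Rel genotypes for most genes. Of the 465 genes that rose in wild type, 458 were above 0 in heterozygotes and 303 were called higher there, against 3.24% of all genes (4.74% in either direction). In homozygotes 447 were above 0 and 309 were called higher, against 4.71% (5.86% in either direction). Of the 60 that fell, 35 were called lower in heterozygotes (1.5% of all genes) and 23 in homozygotes (1.15%). The test of the difference between responses called 0 of 13868 genes for heterozygotes and 0 for homozygotes with edgeR, with 363 and 647 genes at an unadjusted p under 0.05, which does not show that the responses were alike. Both tests share the 8 wild-type libraries. DESeq2 called 0 and 3, the latter inaF-B, GstE10 and the vitamin transporter gene Smvt (DESeq2 adjusted p = 0.0223, 0.0223 and 0.0290). The smallest p of the homozygote difference was at inaF-B, at -1.10 in wild type and 0.30 in homozygotes (difference 1.41 ± 0.29, adjusted p = 0.432), and GstE10 followed, at 1.28 in wild type and -0.05 in homozygotes (difference -1.33 ± 0.27, adjusted p = 0.432).

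**Figure D5:**
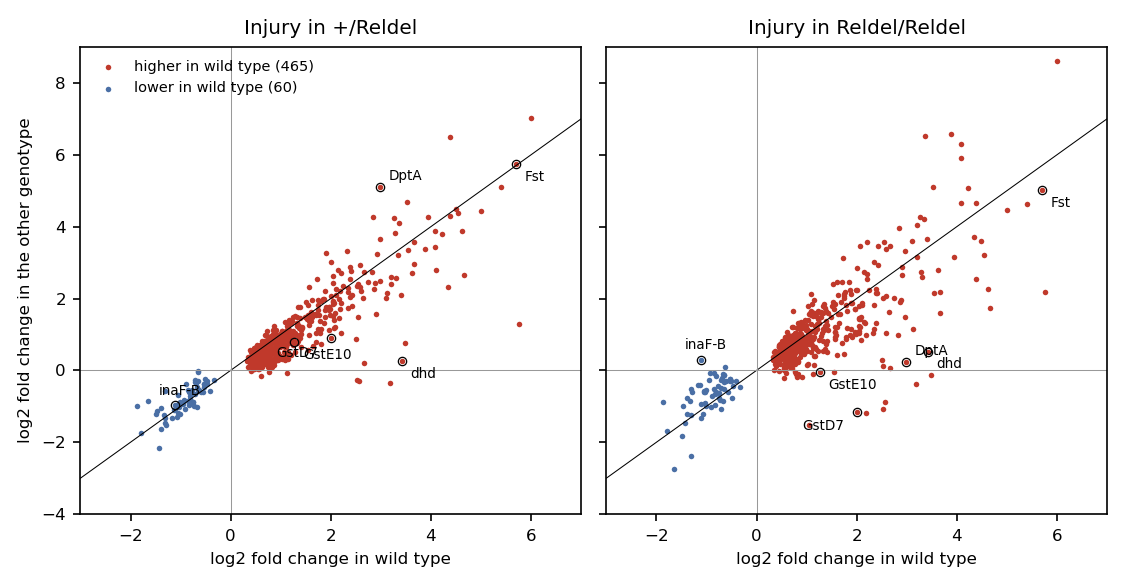
Log2 fold change after injury in +/Reldel and in Reldel/Reldel against that in wild type for the 465 genes that rose (red) and the 60 that fell (blue) in wild type. Most points lie on the same side of 0 in both genotypes, while inaF-B at 0.30 and GstD7 at -1.15 in homozygotes lie on the other side.

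In the authors' deposited table of the same comparison, 900 of 13459 genes were under a false discovery rate of 0.05, 735 higher and 165 lower in injured flies. Of the 520 genes called here that the authors' deposited table holds, 487 were under it there, and all 520 had the same sign. Both rest on the same libraries, so this is no separate support for the calls.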

How the data were processed

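RNA-seq libraries of whole male flies were prepared from 1 µg of total RNA. The authors deposited expected counts per gene and per transcript, whole numbers in these files, and tables of log2 fold changes with p-values for each comparison. The submitters' processing notes name CASAVA, STAR 2.4.2a, RSEM 1.2.22, edgeR 3.10.5 and the dm6 build, with no roles. Strand use in counting is not given in the sources used here.

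Expected counts were rounded to whole numbers and fitted with edgeR 4.0.16 (R 4.3.3): filterByExpr on 6 groups, TMM factors, 1 mean per group over 24 libraries (18 residual degrees of freedom), the quasi-likelihood F-test (two-sided) and Benjamini-Hochberg adjustment, called under 0.05. CPM are counts scaled by the TMM-adjusted library size, and TPM divide the counts by the summed length of annotated exons. Differences between genotypes were tested as interaction contrasts in the same fit. Counting intervals are 95% exact Poisson intervals of the count summed over the lower group and cover counting error only. Coordinates come from Ensembl release 115, which uses the dm6 assembly. No pair of wild-type libraries of a group agreed within sampling noise. Tested on simulated data for the comparison of injury in wild type, with 13762 genes, the fit recovered 22% of genes changed 1.5-fold, 76% at 2-fold, 90% at 4-fold and 98% at 8-fold, with 4 false calls. Simulated counts were drawn independently for each gene and library, with 50 genes changed at each size, up or down at random. Shifts of many genes in 1 library were not simulated, so the number of false calls does not carry over to the data.

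Named genes are Rel, the 15 largest increases and 10 largest decreases among called genes that had no overlap and a higher-group level of 1 CPM or more, the 10 smallest adjusted p, the 10 called genes highest per length, up to 6 called and up to 5 other members of each list, all measured members of the antimicrobial peptide, peptidoglycan recognition, JAK-STAT and Turandot lists, and called transcripts of these genes. The genes PPO1, PPO2, PPO3, egr, rpr, skl, if, mew, SCAR, Hem, Abi, Prat, Prat2, sr, Faa, ninaE and trp, and the genes of neighbouring runs that are in no list, were named after their values were seen, as were those marked so in the text. The genes and lists were chosen with earlier results of these data known. Alternatives were other size factors, no filter on low counts, DESeq2 1.42.0, the 8 wild-type libraries alone, a stricter threshold, a 2-fold floor, a replicate block and each library left out. After seeing the data, 3 were added: leaving out injured library 4 and uninjured library 1 together, the digestive enzyme level as a covariate, and the count of each list with each library left out.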

Additional observations from a re-analysis of the deposited data

Results flagged for a closer look

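In 402 groups of 4 wild-type libraries, 32 held a library far from the other 3. For independent, normally distributed values chance gives about 1 in 20 groups. These groups draw on the same 8 libraries, and some genes were named after their values were seen. That rate is therefore no measure for the 32. Many of the 32 share a library. In injured library 4 these were the summed ovary and egg transcripts at 198 CPM, dhd at 88.4 CPM, wisp at 30.5 CPM, yl at 21.7 CPM, eloF at 20.4 CPM and APC7 at 7.28 CPM. In uninjured library 1 they were TotA at 227 CPM, TotC at 151 CPM, TotX at 22.7 CPM, DptA at 21.9 CPM, AttD at 3.26 CPM and ninaD at 3.26 CPM, all above the other uninjured libraries, and its total of 6987499 counts, below theirs.

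In injured library 3, Cht4 stood apart at 72.2 CPM, pirk at 26.4 CPM, CHMP2B at 26.1 CPM, Acbp6 at 23.1 CPM and TotB at 1.13 CPM. In injured library 1 it was PGRP-LD at 11.9 CPM and PPO2 at 9.28 CPM. Uninjured library 2 stood apart for IM23 at 9.93 CPM, Mtk at 8.55 CPM and lncRNA:IBIN at 0.242 CPM. Uninjured library 3 did so for Cyp313a1 at 582 CPM, CG31205 at 72.7 CPM, spz at 34.0 CPM and AsnS at 30.1 CPM. In uninjured library 4 the genes were cher at 133 CPM, Timp at 67.3 CPM, Tak1 at 24.5 CPM, CG13324 at 1.94 CPM and psd at 0.0777 CPM. What sets these libraries apart was not tested.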

How the results depend on the processing

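Over all genes tested, 525 were called after injury in wild type, 465 higher and 60 lower. The count lower was 128 in a fit of the 8 wild-type libraries alone, 105 with DESeq2, and 29 without injured library 4 and uninjured library 1, an alternative chosen after seeing the data. The fit of the 8 wild-type libraries alone called 655 genes and kept 450 of the 525 calls, 400 higher and 50 lower. The other calls were thus not made without the libraries of the Rel genotypes. With a floor of 2-fold, 246 genes were called, 221 higher and 25 lower, and at an adjusted p under 0.01, 272, with 253 higher and 19 lower. As each library was left out in turn, the calls ranged from 301 to 459, with 257 to 417 higher and 27 to 46 lower, and transcript calls from 172 to 254, with 153 to 232 higher and 11 to 22 lower. Fewer libraries enter those fits. The difference between responses called 0 genes with edgeR in each of these settings that was run, while DESeq2 called 3 genes for homozygotes, 1 higher and 2 lower. wisp changed sign, at -0.13 without injured library 4 and -0.37 without both libraries, and its values ranged from -0.13 to 3.04 as each library was left out.

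Samples with the same replicate number in the labels did not all deviate together in wild type: the correlations of their deviations were 0.18, 0.22, -0.29 and -0.10. Libraries with unlike numbers had correlations of -0.29 to 0.34, so these values cannot decide whether the numbers pair the libraries. With the replicate number as a block 484 genes were called, 438 higher and 46 lower, and 235 transcripts, 216 higher and 19 lower. Depth limits genes with few counts, since 3 counts stand for 0.218 to 0.457 CPM.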
